A study of Mus musculus with 8 samples.

Results

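Melanin, the pigment of mouse coat and skin, is made by melanocytes inside an organelle called the melanosome. Expression was followed here for 9 genes of this pathway, which are the enzymes Tyr, Tyrp1 and Dct, the melanosome proteins Pmel and Mlana, the transporters Slc45a2 and Oca2, and the transcription factors Mitf and Sox10. They were taken by name, as the probe sets whose platform annotation gives 1 of these symbols and no other. Each gene had 1 such probe set, so 9 of the 22180 genes with 1 symbol on the arrays were examined. In furred mouse back skin, most pigment is made by melanocytes at the base of the hair follicle, which pass melanin to the growing hair shaft, and pigment is made while hair grows. Pigment synthesis starts from tyrosine and proceeds on a fibrillar scaffold within the melanosome, and many of the genes involved are activated by Mitf.

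Dorsal skin of male mice was measured on 8 arrays, 1 for each label. KO stands for the strain B6.Cg-Il22ra1tm1.1Koll/J, which carries a targeted allele of the IL-22 receptor gene Il22ra1, and WT for C57BL/6. Labels with IMQ are KO_IMQ, KO_IMQ_B, KO_IMQ_Allo and WT_IMQ, and those without it are KO_CTRL, KO_CTRL-B, KO_Allo and WT_CTRL. IMQ is imiquimod, a Toll-like receptor agonist that causes psoriasis-like inflammation of the skin. Per the labels, 83.3 mg of 5% imiquimod cream was put on the back and ears daily from day 1 to day 7, and a cream with vehicle or with the peptide alloferon (Allo) followed 6 hours later. The meaning of the letter B, the age of the mice, the vehicle given to each array's mice and any pooling of the 4 mice stated per group are not given in the sources used here. The cells in which the Il22ra1 allele was altered are not given either. The probe set of Il22ra1 read 8.59 to 9.40 on the 6 KO arrays, against 8.23 and 8.64 on the WT arrays, and so does not check the genotype. Values are log2 levels from robust multi-array averaging, so 1 unit is a 2-fold difference and levels of different genes cannot be compared. The array medians differed by at most 0.05 units.

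Arrays whose labels differ in IMQ alone form 4 pairs: KO plain (KO_IMQ and KO_CTRL), KO B (KO_IMQ_B and KO_CTRL-B), KO Allo (KO_IMQ_Allo and KO_Allo) and WT (WT_IMQ and WT_CTRL). The first comparison asks what imiquimod changed across these pairs. Transcripts of the 3 pigment enzymes, of Pmel and of Slc45a2 fell, by 3.04-fold for Tyr down to 2.18-fold for Slc45a2 on a linear scale, and 0 pigment genes were called higher. Oca2 and Mlana had differences of similar size that varied more between pairs and did not pass the test. The lineage factors differed less, with Mitf at -0.51 and Sox10 at -0.10 log2 units. Calls were made in limma, fitted over all genes with a level per pair, where the adjusted p was below 0.05. By that rule 5 of the 9 genes were called lower, against 1.19% of all 22180 genes. The median over the 9 genes was -1.27 log2 units, against -0.01 over all genes. All 9 were lower with imiquimod in 4 of 4 pairs, which held for 14.3% of all genes. In whole skin, fewer melanocytes, less RNA per melanocyte and a changed share of other tissue cannot be told apart.

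**Figure D1:**
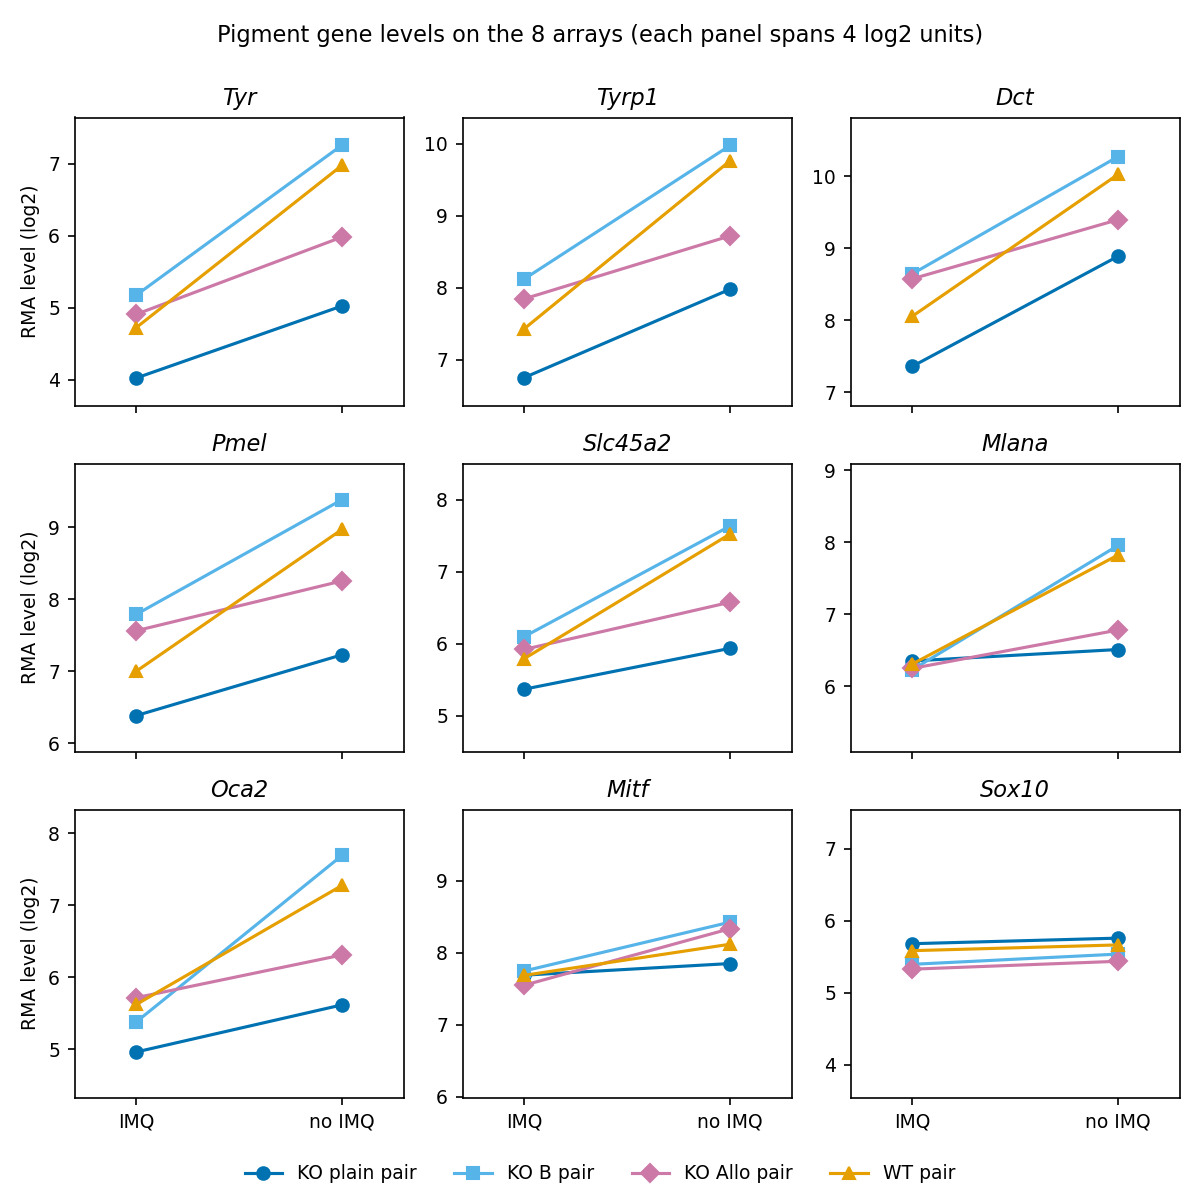
Level of each pigment gene (log2, each panel spanning 4 units) on the imiquimod array, left, and on the array without imiquimod, right, of each pair; a line joins the arrays of a pair. Tyr, Tyrp1, Dct, Pmel, Slc45a2 and Oca2 slope upward to the right in all 4 pairs, the KO plain pair is the lowest for Tyr (4.02 with and 5.03 without imiquimod), and Sox10 is nearly flat.

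Tyrosinase, encoded by Tyr, carries out the rate-limiting first step of melanin synthesis. Its transcript read 4.02 on KO_IMQ, 5.18 on KO_IMQ_B, 4.91 on KO_IMQ_Allo and 4.73 on WT_IMQ, against 5.03 on KO_CTRL, 7.26 on KO_CTRL-B, 5.98 on KO_Allo and 6.98 on WT_CTRL. The groups overlapped at 1 point, because KO_CTRL lay below KO_IMQ_B. Over the pairs Tyr fell by 1.60 ± 0.24 log2 units (standard error from limma, 4 pairs, adjusted p = 0.0268), a level 3.04-fold lower with imiquimod. By pair the difference was -1.0 in KO plain, -2.08 in KO B, -1.07 in KO Allo and -2.25 in WT, so the WT and KO B pairs differed by more than the KO plain and KO Allo pairs.

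Tyrp1 encodes a tyrosinase-related enzyme that acts late in the synthesis of black eumelanin in mice. It read 6.75 on KO_IMQ, 8.12 on KO_IMQ_B, 7.85 on KO_IMQ_Allo and 7.43 on WT_IMQ, against 7.98 on KO_CTRL, 9.97 on KO_CTRL-B, 8.72 on KO_Allo and 9.76 on WT_CTRL. As for Tyr, the KO_CTRL value was low enough to lie among the imiquimod arrays, just under KO_IMQ_B. Tyrp1 fell by 1.57 ± 0.23 log2 units (limma, adjusted p = 0.0272), or 2.97-fold. The fall ranged over the pairs between -2.33 in WT and -0.87 in KO Allo.

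Dct, dopachrome tautomerase, converts dopachrome between those steps and is an early marker of the melanocyte lineage. It read 7.36 on KO_IMQ, 8.64 on KO_IMQ_B, 8.57 on KO_IMQ_Allo and 8.05 on WT_IMQ, against 8.89 on KO_CTRL, 10.27 on KO_CTRL-B, 9.40 on KO_Allo and 10.02 on WT_CTRL. Here the groups did not overlap, since the highest imiquimod array lay below the lowest array without it. Non-overlap in this direction was found for 3 of the 9 genes (Dct, Mlana and Mitf) and for 5.04% of all genes. Dct fell by 1.49 ± 0.18 log2 units (limma, adjusted p = 0.0183), or 2.80-fold, with the smallest adjusted p of the 9 genes.

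The promoters of the 3 enzymes are shown because each holds the same short element. Pmel and Slc45a2 fell as well, but no promoter sequence was at hand for them. Any part of the element in the fall was not tested. The M-box, an extended E-box bound by Mitf, has the core TCATGTG. RefSeq windows of GRCm38.p6, from 250 bases before to 50 bases after a gene start, were at hand for 5 of the 9 genes (Tyr, Tyrp1, Dct, Oca2 and Mitf, the last with 3 windows). Capitals mark TCATGTG or its reverse complement CACATGA, and each sequence reads 5′ to 3′ along the gene's strand. Tyr lies at chr7:87493463-87493762 on the minus strand, Tyrp1 at chr4:80833963-80834262 on the plus strand and Dct at chr14:118052197-118052496 on the minus strand.
Tyr: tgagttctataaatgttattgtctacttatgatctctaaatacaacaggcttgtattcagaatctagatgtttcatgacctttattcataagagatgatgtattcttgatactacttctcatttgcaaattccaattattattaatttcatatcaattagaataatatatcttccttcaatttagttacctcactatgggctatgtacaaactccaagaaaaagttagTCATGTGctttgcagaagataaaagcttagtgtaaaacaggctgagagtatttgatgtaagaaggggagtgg
Tyrp1: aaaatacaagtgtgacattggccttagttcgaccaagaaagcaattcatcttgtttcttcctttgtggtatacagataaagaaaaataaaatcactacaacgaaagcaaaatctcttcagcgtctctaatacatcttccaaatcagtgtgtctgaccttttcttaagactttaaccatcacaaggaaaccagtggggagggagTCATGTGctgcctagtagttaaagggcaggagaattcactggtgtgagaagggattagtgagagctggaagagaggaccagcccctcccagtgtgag
Dct: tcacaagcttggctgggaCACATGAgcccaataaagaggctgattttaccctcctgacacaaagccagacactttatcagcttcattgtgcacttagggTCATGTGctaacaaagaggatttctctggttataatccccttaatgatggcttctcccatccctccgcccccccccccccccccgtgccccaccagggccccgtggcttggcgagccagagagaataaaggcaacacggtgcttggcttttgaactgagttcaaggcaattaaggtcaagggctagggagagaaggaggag

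In Tyr the element begins 22 bases before the annotated start, and in Tyrp1 47 bases before it. Dct holds it at 151 bases before the start and again, on the opposite strand, at 232 bases before it. Among all 32851 RefSeq windows of this length, 3.77% hold TCATGTG on either strand. The Oca2 window holds the shorter CATGTG, on the opposite strand 186 bases before the start, and 14.2% of all windows hold those 6 letters. Every TCATGTG contains a CATGTG. The 3 Mitf windows hold neither. The E-box variants CACGTG (7.15% of all windows) and CATATG (3.91%) were in none of the 7 windows. Of the SOX-type sequences, ACAAAG (18.7% of all windows) was in the Tyrp1, Oca2 and Dct windows and ACAATG (12.6%) in the Dct window. A match describes the letters in a window and is not evidence of binding.

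Among the melanosome proteins, Pmel forms the amyloid fibrils on which melanin is laid down. It read 6.38 on KO_IMQ, 7.79 on KO_IMQ_B, 7.56 on KO_IMQ_Allo and 7.00 on WT_IMQ, against 7.23 on KO_CTRL, 9.38 on KO_CTRL-B, 8.25 on KO_Allo and 8.97 on WT_CTRL. KO_CTRL lay below both KO_IMQ_B and KO_IMQ_Allo, so the groups overlapped. Pmel fell by 1.27 ± 0.22 log2 units over the pairs (limma, adjusted p = 0.0379), or 2.42-fold.

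Mlana, also known as MART-1, is a melanosome membrane protein needed for the processing of Pmel. Its imiquimod arrays were close to each other, at 6.35 on KO_IMQ, 6.23 on KO_IMQ_B, 6.25 on KO_IMQ_Allo and 6.31 on WT_IMQ. The arrays without imiquimod read 6.51 on KO_CTRL, 7.95 on KO_CTRL-B, 6.78 on KO_Allo and 7.82 on WT_CTRL. The standard deviation was thus 0.06 over the 4 imiquimod arrays and 0.73 over the 4 others. Whether the Mlana probe set could show a lower level was not tested. The difference was -0.98 ± 0.27 log2 units and was not called (limma, adjusted p = 0.108). It was -0.16 in the KO plain pair and -1.73 in KO B.

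The transporters set the ionic conditions inside the melanosome under which tyrosinase works. Slc45a2 read 5.37 on KO_IMQ, 6.10 on KO_IMQ_B, 5.92 on KO_IMQ_Allo and 5.80 on WT_IMQ, against 5.94 on KO_CTRL, 7.64 on KO_CTRL-B, 6.58 on KO_Allo and 7.53 on WT_CTRL. KO_IMQ_B again lay above KO_CTRL. Slc45a2 fell by 1.12 ± 0.22 log2 units, with an adjusted p = 0.0490 (limma) that was the largest among the 5 calls. After the arrays were quantile-normalized again its adjusted p was 0.0520 in limma, and 4 pigment genes were called.

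Oca2, the gene of the pink-eyed dilution locus, read 4.97 on KO_IMQ, 5.38 on KO_IMQ_B, 5.72 on KO_IMQ_Allo and 5.63 on WT_IMQ, against 5.62 on KO_CTRL, 7.70 on KO_CTRL-B, 6.31 on KO_Allo and 7.28 on WT_CTRL. KO_CTRL lay just below WT_IMQ and KO_IMQ_Allo. The mean difference, -1.30 ± 0.29 log2 units, was a little larger than that of Pmel but was not called (limma, adjusted p = 0.0666). Its spread over the pairs was wide, from -0.59 in KO Allo to -2.31 in KO B.

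Mitf is the transcription factor that activates many melanosome genes, and it is also used by mast cells and macrophages. Its probe set read 7.69 on KO_IMQ, 7.75 on KO_IMQ_B, 7.55 on KO_IMQ_Allo and 7.69 on WT_IMQ, against 7.85 on KO_CTRL, 8.43 on KO_CTRL-B, 8.34 on KO_Allo and 8.12 on WT_CTRL. The groups did not overlap, but the difference was small at -0.51 ± 0.13 log2 units and was not called (limma, adjusted p = 0.0825). Unlike the other 8 genes, Mitf differed most in the KO Allo pair, at -0.78.

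Sox10 acts upstream of Mitf in the neural crest lineage and is also expressed by the Schwann cells of skin nerves. It read 5.68 on KO_IMQ, 5.39 on KO_IMQ_B, 5.33 on KO_IMQ_Allo and 5.58 on WT_IMQ, against 5.76 on KO_CTRL, 5.54 on KO_CTRL-B, 5.44 on KO_Allo and 5.66 on WT_CTRL. All 8 arrays lay within 0.43 units and the groups overlapped widely. The probe sets of Sox10 and Tyr were dim, with means over the 8 arrays of 5.55 and 5.51, below the median gene at 6.06. Whether the Sox10 probe set could show a change was not tested. The difference was -0.10 ± 0.08 log2 units (limma, adjusted p = 0.583).

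Markers of those other cells were read beside Mitf and Sox10. Of 10 monocyte and macrophage genes 4 were called higher, against 1.9% of all genes, and 0 lower. They were Adgre1 at 2.0 ± 0.23, C1qb at 1.21 ± 0.21, Csf1r at 0.95 ± 0.18 and Lyz2 at 0.85 ± 0.13 log2 units. The mean level of all 10 genes was 8.46 to 9.21 on the imiquimod arrays and 7.79 to 8.29 on the others. Of 10 mast cell genes 0 were called and their median difference was 0.40, with mean levels of 5.20 to 6.51 on the imiquimod arrays and 4.96 to 5.84 on the others. The 2 with the largest differences were Hdc at 1.26 ± 0.59 and Cpa3 at 1.02 ± 0.49 (limma, adjusted p = 0.311 and 0.331). In the KO Allo pair these genes went the other way, Hdc at -1.29 and Cpa3 at -0.80. Of the 10, 1 had a negative difference over the pairs, Mrgprb2 at -0.53 ± 0.11 (limma, adjusted p = 0.0587). Of the 7 Schwann cell genes measured 0 were called and their median was -0.20, with Cdh19 at -0.40 ± 0.21 and Egr2 at -0.31 ± 0.18 (adjusted p = 0.354 and 0.398). Their mean level was 6.11 to 6.23 with imiquimod and 6.23 to 6.43 without. The part of these cells in the Mitf and Sox10 values was not tested.

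**Figure D2:**
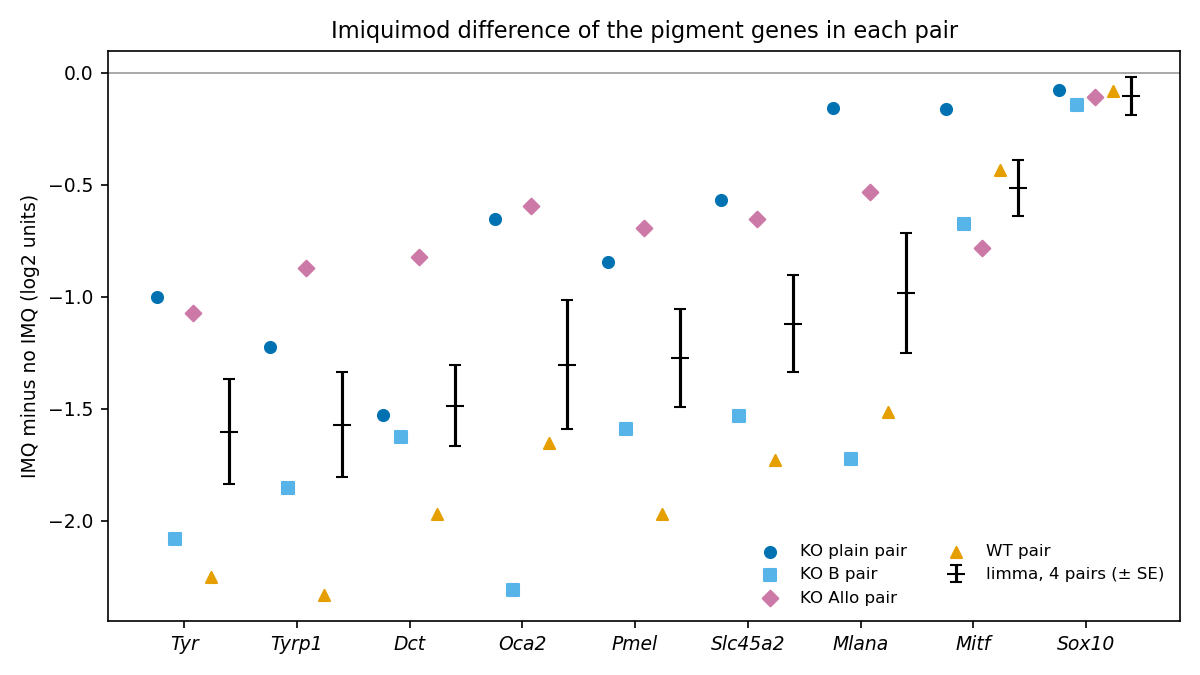
Imiquimod minus no imiquimod (log2 units) for each gene in each of the 4 pairs, with the limma estimate and its standard error in black; genes run by mean difference. The WT and KO B pairs lie lowest for Tyr, Tyrp1, Dct, Pmel, Slc45a2, Mlana and Oca2, while Mitf is lowest in KO Allo and Sox10 lies between -0.14 and -0.08.

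In order of mean difference the genes were Tyr, Tyrp1, Dct, Oca2, Pmel, Slc45a2, Mlana, Mitf and Sox10. The order was taken from these same differences, so the sign of each mean step is fixed by the sorting. The steps are given as descriptions and not as tests. Tyr and Tyrp1 were 0.03 units apart, with Tyr falling further in 2 of 4 pairs, and Oca2 fell further than Pmel in 1 of 4 pairs. The step between Pmel and Slc45a2 had the same sign in 4 of 4 pairs, at -0.15 ± 0.12 log2 units (SD, n = 4 pairs). So did that between Mitf and Sox10, at -0.41 ± 0.26. Mlana and Mitf were -0.47 ± 0.70 apart, and Mlana differed more in 2 of 4 pairs. Set against Tyr within the same pairs, Sox10 fell less in 4 of 4, the gap being -1.50 ± 0.65 units. Mlana fell less in 4 of 4, by -0.62 ± 0.22. Whether the probe sets of Sox10 and Mlana could show lower levels was not tested, so these gaps compare probe sets.

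The 7 genes other than the transcription factors ran together over the 8 arrays. Their 21 pairwise correlations were r = 0.858 to 0.996, and 0.655 to 0.993 after the mean of each imiquimod status was taken away. The points share the arrays and the imiquimod contrast, so these values describe the arrays. KO_CTRL-B, WT_CTRL and KO_Allo ranked at places 1, 2 and 3 for all 7 genes. KO_IMQ ranked last for 6 of them, the exception being Mlana, for which KO_IMQ_B did. Mitf correlated with the 7 at 0.809 to 0.855 and Sox10 at -0.202 to 0.237.

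By pair, the median of the 9 genes was -0.65 log2 units in KO plain, -1.63 in KO B, -0.69 in KO Allo and -1.73 in WT. Differences of at least 1 unit downward were seen for 3 of the 9 genes in KO plain (2.22% of all genes), 7 in KO B (1.29%), 1 in KO Allo (0.938%) and 7 in WT (2.12%). The calls depended on which arrays entered, for all genes as for the pigment genes. Without the KO Allo pair 6 of the 9 genes were called, Oca2 being added, among 481 of 22180 genes called lower. Without the KO plain pair only Tyr was called of the 9, among 138 genes lower, without the KO B pair 0 of the 9 and 2 genes in all, and without the WT pair 0 and 0. The median of the 9 stayed between -1.47 and -0.98 log2 units when 1 pair was left out. With no levels for pairs 190 genes were still called lower and 557 higher, but 0 of the 9 were called. Their differences are the same in that fit, with a median of -1.27, and the adjusted p for Tyr was 0.0925 in limma.

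Hair follicle genes moved with the pigment genes. Of 20 genes of the follicle's inner sheath and hair shaft 16 were called lower, against 1.19% of all genes, with a median difference of -2.53 log2 units. Krtap8-1, which encodes a hair keratin-associated protein, fell by 4.18 ± 0.61 log2 units. Tchh, a sheath structural protein, measured -3.64 ± 0.47, and the sheath keratins Krt71, Krt27, Krt26 and Krt25 measured -3.48, -3.42, -3.36 and -3.05, all called. The mean level of the list was 5.29 on KO_IMQ, 7.89 on KO_IMQ_B, 6.60 on KO_IMQ_Allo and 6.19 on WT_IMQ, against 7.19 on KO_CTRL, 10.03 on KO_CTRL-B, 8.93 on KO_Allo and 9.53 on WT_CTRL. KO_CTRL thus lay below KO_IMQ_B for hair genes as well as for Tyr, Tyrp1, Pmel and Slc45a2. With the hair list mean as a covariate 0 of the 9 pigment genes and 0 of all 22180 genes were called, and Tyr measured 0.07 and Dct -0.58 log2 units. Hair content and imiquimod run together on these arrays, and with 4 arrays per imiquimod status the relation was not tested.

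**Figure D3:**
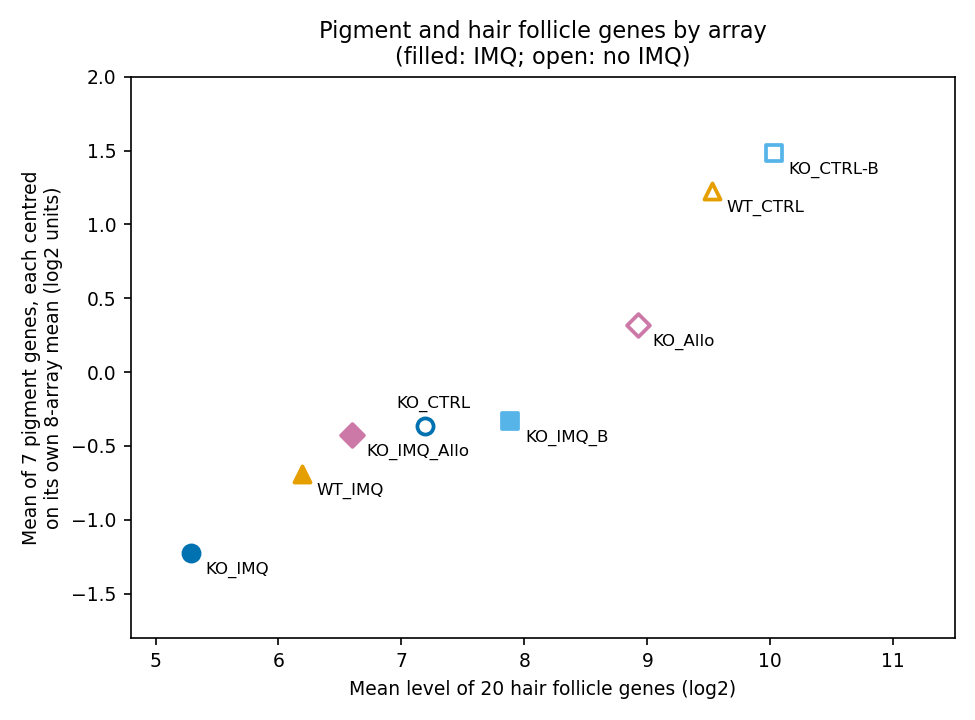
Mean of the 7 pigment genes other than Mitf and Sox10, each centred on its own 8-array mean (vertical axis, log2 units), against the mean level of 20 hair follicle genes (horizontal axis, log2) on each array; filled symbols are imiquimod arrays and open symbols arrays without it. KO_IMQ lies at the lower left (-1.22 and 5.29), KO_CTRL-B at the upper right (1.49 and 10.03), and the open symbol of KO_CTRL (-0.37 and 7.19) lies among the imiquimod arrays.

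The genes most like the mean of Tyr, Tyrp1 and Dct were sought by Pearson's r over the 8 arrays among 1239 other genes with a standard deviation of at least 0.5. The 10 highest were Slc27a6 (r = 0.991), Hoxc13 (0.989), Lap3 (0.985), Slc39a10 (0.985), Lef1 (0.982), Krt35 (0.981), Krt31 (0.981), Slc24a4 (0.978), Chn2 (0.977) and Gpr37 (0.977). Hoxc13 is a regulator of hair shaft keratins, Krt35 and Krt31 are such keratins, and Lef1 is a Wnt pathway transcription factor of the hair matrix. Hoxc13 read 5.53 on KO_IMQ, 6.99 on KO_IMQ_B, 6.52 on KO_IMQ_Allo and 5.99 on WT_IMQ, against 6.74 on KO_CTRL, 8.50 on KO_CTRL-B, 7.71 on KO_Allo and 8.26 on WT_CTRL. The order of its arrays, with KO_CTRL below KO_IMQ_B, was that of Tyr. Once the mean of each imiquimod status was taken away, 9 of these 10 genes were again among the 10 highest. Of the 10, 5 were shared with the genes most like Pmel, 3 with those most like Slc45a2 and 0 with those most like Mlana.

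Other genes of the pathway did not fall as a body. Among 11 other melanosome membrane proteins the median was 0.04 log2 units, with 1 called lower and 1 higher (1.19% and 1.9% of all genes). Of the 11, 5 had a negative difference, and 3 of these were lower in 4 of 4 pairs (14.3% of all genes). The 3 were Slc24a4, Gpr143 at -0.63 and Trpm1 at -0.60 log2 units. Gpr143 and Trpm1 were not called (limma, adjusted p = 0.1197 and 0.0502). Slc24a4, a sodium, calcium and potassium exchanger, fell by 1.28 ± 0.19 (adjusted p = 0.0268). Slc7a11, the cystine importer that affects yellow pheomelanin in mice and is made by many stressed cells, rose by 3.55 ± 0.62 (adjusted p = 0.0386). It read 10.42 on KO_IMQ, 9.88 on KO_IMQ_B, 9.25 on KO_IMQ_Allo and 9.17 on WT_IMQ. Without imiquimod it read 4.20 on KO_CTRL, 6.76 on KO_CTRL-B, 7.23 on KO_Allo and 6.32 on WT_CTRL.

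Of 5 surface receptors of melanocytes 0 were called and the median was -0.36. Mc1r, the melanocortin receptor that switches melanocytes toward eumelanin, measured -0.64 ± 0.14 (limma, adjusted p = 0.0678), and Kit, the receptor tyrosine kinase that melanocytes and mast cells need, -0.41 ± 0.17 (adjusted p = 0.261). Among 8 ligands and extracellular regulators the median was -0.18, and 1 gene was called lower, against 1.19% of all genes. It was Kitl, the Kit ligand made by keratinocytes and dermal cells, which fell by 0.61 ± 0.11 log2 units (adjusted p = 0.0457). Kitl read 6.78 on KO_IMQ, 7.42 on KO_IMQ_B, 7.16 on KO_IMQ_Allo and 7.62 on WT_IMQ, against 7.68 on KO_CTRL, 8.10 on KO_CTRL-B, 7.64 on KO_Allo and 8.0 on WT_CTRL.

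Of 12 other transcription factors of the lineage 2 were called lower and 1 higher (1.19% and 1.9% of all genes), around a median of -0.01. Lef1 fell by 1.78 ± 0.20 (adjusted p = 0.0157) and Tfap2b by 1.16 ± 0.15 (adjusted p = 0.0209). Tfec, a relative of Mitf that macrophages also express, rose by 1.19 ± 0.18 (adjusted p = 0.0294). Of 22 genes for the biogenesis and transport of melanosomes and related organelles 0 were called, with a median of 0.12. The 2 with the largest differences were Rab38 at 0.30 ± 0.12 and Vps33a at 0.27 ± 0.11 (limma, adjusted p = 0.266 and 0.251). Many of these transport genes serve lysosomes in every cell type.

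**Figure D4:**
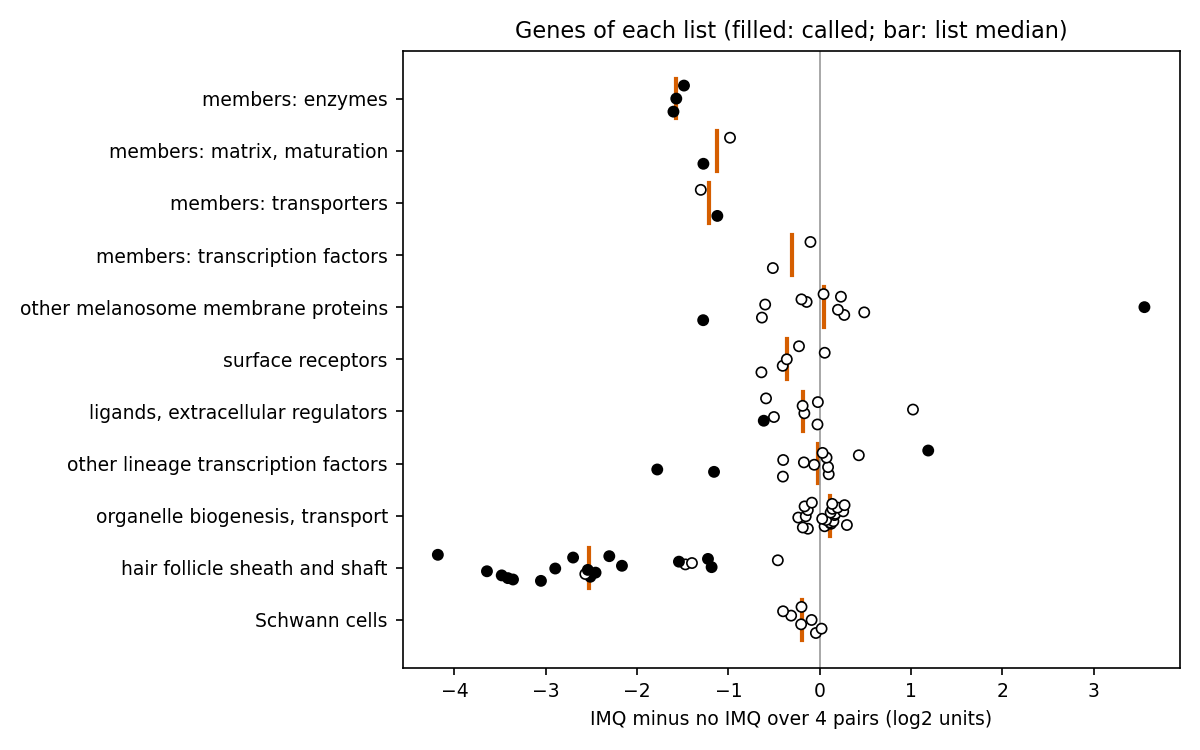
Imiquimod minus no imiquimod over 4 pairs (log2 units) for each measured gene of each list, with called genes filled and an orange bar at each list's median. The enzymes (median -1.57) and hair follicle genes (median -2.53) lie to the left, and the organelle biogenesis genes (median 0.12) gather around 0.

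Whether the response differed with the labelled genotype was asked by fitting 1 imiquimod effect for the 3 KO pairs and 1 for the WT pair. In KO all 9 genes were lower with imiquimod, with a median of -1.04 log2 units, Tyr at -1.39 ± 0.24, Tyrp1 at -1.32 ± 0.20, Dct at -1.33 ± 0.19 and Pmel at -1.04 ± 0.20. Without the KO B pair the KO median was -0.62. The WT effect rests on 1 pair, so its standard errors, its intervals and those of the difference take their spread from the 3 KO pairs alone and assume that WT pairs would vary alike. In WT all 9 were lower too, with a median of -1.73, Tyr at -2.25 ± 0.41, Tyrp1 at -2.33 ± 0.35, Dct at -1.97 ± 0.32 and Pmel at -1.97 ± 0.34. In limma 0 of the 9 and 0.0% of all genes were called in KO, in WT or for their difference. The smallest adjusted p of the 9 was 0.109 in KO. In the same limma fit 8 of the 9 had an unadjusted p under 0.05 in KO, as did 3093 of all 22180 genes. A trended prior called 0 of the 9 as well.

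The difference, KO minus WT, was positive for 7 of the 9 genes, meaning a smaller fall in KO. It was 1.01 log2 units for Tyrp1 (95% interval 0.0016 to 2.02), 0.93 for Pmel (-0.064 to 1.92), 0.87 for Tyr (-0.31 to 2.05) and 0.64 for Dct (-0.28 to 1.57). All of these had an adjusted p = 0.983 in limma. The KO B pair, with Tyr at -2.08, lay nearer to the WT pair at -2.25 than to the KO plain and KO Allo pairs at -1.0 and -1.07. Without the KO Allo pair the difference for Dct was 0.39, and without the KO B pair the median over the 9 genes was 1.12, against 0.71 with all pairs. The absence of a call leaves the size of any genotype difference undecided.

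**Figure D5:**
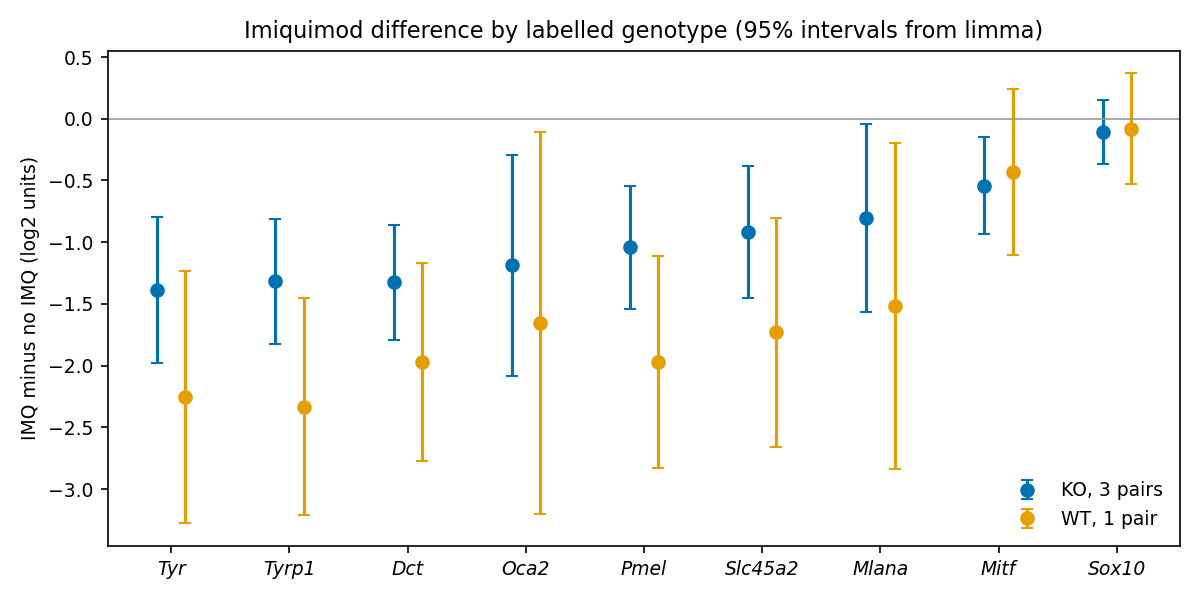
Imiquimod minus no imiquimod (log2 units) for each gene over the 3 KO pairs, left, and in the WT pair, right, with 95% intervals from limma. The WT points lie lower for Tyr (-2.25 against -1.39 in KO), Tyrp1, Dct, Oca2, Pmel, Slc45a2 and Mlana, and the intervals of the genotypes overlap for every gene.

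Without imiquimod, the KO arrays fell on either side of WT. These comparisons set 1 array against 1, so they have no replicate check and no test, and differences of 1 log2 unit or more were counted. On KO_CTRL 7 of the 9 genes were lower than on WT_CTRL by that much, against 0.893% of all genes, with Tyr at 5.03 on KO_CTRL and 6.98 on WT_CTRL and a median difference of -1.59. On KO_CTRL-B, the median difference from the same WT_CTRL array was 0.25, and 0 of the 9 genes were 1 unit apart (1.14% of all genes, either way). KO_CTRL was lower than KO_CTRL-B by 1 unit or more for 7 of the 9 (1.46% of all genes), with a median of -1.70. Mitf and Sox10 were the genes not counted in either comparison of KO_CTRL. The 2 KO skins without imiquimod or alloferon therefore differed from each other by more than KO_CTRL-B differed from WT_CTRL.

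For the pigment genes KO_CTRL was nearer to an imiquimod array. Set against KO_IMQ_B, 4 of the 9 genes were lower and 5 higher, from -0.56 for Pmel to 0.36 for Sox10. The median, in which the 2 directions offset, was 0.10 log2 units, and 0 of the 9 were 1 unit apart, against 4.67% of all genes. Over all probe sets KO_CTRL correlated with KO_IMQ_B at r = 0.966 and with WT_CTRL at 0.979. KO_CTRL also had a hair list mean of 7.19, below KO_IMQ_B. Its skeletal muscle list mean of 11.20 was the highest of the 8 arrays, with WT_CTRL close to it at 10.97. The part of tissue content in the pigment values of KO_CTRL was not tested.

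Under imiquimod, KO_IMQ was lower than WT_IMQ for 6 of the 9 genes, with a median of -0.62, and KO_IMQ_B was higher than WT_IMQ for 6 of the 9, with a median of 0.31. In both comparisons 0 of the 9 genes were 1 unit apart (1.29% and 1.22% of all genes, either way). KO_IMQ was lower than KO_IMQ_B by 1 unit or more for 4 genes, Tyr, Tyrp1, Dct and Pmel, against 0.622% of all genes. Tyr read 4.02 on KO_IMQ and 5.18 on KO_IMQ_B, a gap of -1.15 units, larger than the -0.70 between KO_IMQ and WT_IMQ.

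For most pigment genes the alloferon arrays lay between the other KO arrays of the same imiquimod status, as they did for 8 of the 9 without imiquimod (all but Sox10; 36.8% of all genes) and for 6 of the 9 with it (all but Oca2, Mitf and Sox10; 28.4% of all genes). Without imiquimod, Tyr read 5.98 on KO_Allo, against 5.03 on KO_CTRL and 7.26 on KO_CTRL-B. Relative to KO_CTRL, 1 of the 9 genes (Pmel) was higher by 1 unit or more on KO_Allo (1.6% of all genes) and the median was 0.64. Against KO_CTRL-B, 6 of the 9 were lower by 1 unit or more (0.681% of all genes), with a median of -1.13. Both comparisons share the KO_Allo array. Relative to WT_CTRL, 2 of the 9 genes (Tyrp1 and Mlana) were lower by 1 unit or more (1.09% of all genes), with a median of -0.95.

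With imiquimod, Tyr read 4.91 on KO_IMQ_Allo, against 4.02 on KO_IMQ and 5.18 on KO_IMQ_B. Tyrp1, Dct and Pmel were higher on KO_IMQ_Allo than on KO_IMQ by 1.09, 1.22 and 1.18 log2 units, so 3 of the 9 genes passed 1 unit (0.676% of all genes). Against KO_IMQ_B 0 of the 9 were 1 unit apart (1.27% of all genes, either way), with a median of -0.18. The direction of the alloferon difference for Tyr, Tyrp1, Dct, Pmel and Slc45a2 thus turned with the KO array it was set against, at both imiquimod statuses.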

How the data were processed

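The authors deposited log2 expression values per probe set for 8 arrays, made by robust multi-array averaging (RMA). The submitters' processing notes name Affymetrix Power Tools and, without its role, R 3.3.2. Of 41345 probe sets, 23521 carry 1 gene symbol, 1814 several and 16010 none. A gene was read from its probe set with the highest mean, giving 22180 genes, of which 1082 had several. Arrays have no read depth, and their number limits the precision. Each label has 1 array, so the imiquimod difference repeated over 4 pairs is the only replication, and nothing says that the pairs are separate experiments.

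Linear models were fitted in limma 3.58.1 (R 4.3.3; lmFit and eBayes) over all genes, with a level per pair and 1 imiquimod effect, or 1 for each genotype, and Benjamini-Hochberg adjustment over 22180 genes. Errors are standard errors from limma unless named as SD. The models were tested on simulated data in which 200 genes changed by the same amount in every pair. Noise was drawn separately for each gene and array, so noise shared by genes and unequal changes between pairs are not covered. The models called 64.5% of the changed genes over 4 pairs at 1 log2 unit and 93% at 2 units, against 0% and 86% in the KO pairs. In the WT pair they called 0% at 2 units.

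The 9 genes and all gene lists were chosen with earlier results of these data known. Named genes are the 9, the genes called in each list (up to 6, by size of difference) or otherwise the 2 with the largest differences, and the 10 most like the mean of Tyr, Tyrp1 and Dct. A few uncalled genes are also named where their direction differs from that of the called genes or of the list median. Alternatives varied the pair levels, prior, dim genes, probe set rule, normalization, pairs, the reading of B and tissue covariates. A comparison of protein sequences was not run. Promoter windows are RefSeq's. Python 3.11.15 was used for tables and figures.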

Additional observations from a re-analysis of the deposited data

How the results depend on the processing

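Over 4 pairs, 421 genes were called higher and 264 lower, 5 of them pigment genes. These counts became 0, 0 and 0 with the hair list mean as a covariate, 0, 0 and 0 with the muscle list mean (where all 9 pigment genes were still lower, with a median of -1.25 log2 units against -1.27), and 22, 50 and 0 without the WT and KO plain pairs. Calls lower numbered 76, with 0 pigment genes, when B was read as a second KO plain array. Without dim genes (mean level below 6.06), 416 of the 11090 genes left were called lower. That setting drops Tyr and Sox10, and 5 of the 7 pigment genes left were called, Oca2 being added. Without levels for pairs (no replicate block) 557 genes were called higher and 190 lower but 0 pigment genes, whose differences are the same in that fit (median -1.27). Quantile normalization again left 4 pigment calls, Slc45a2 being lost (adjusted p = 0.0520 in limma). Leaving out 1 pair at a time gave 0 to 826 genes higher, 0 to 481 lower and 0 to 6 pigment genes. With the hair covariate the sign turned for Tyr (0.074), Tyrp1 (0.18), Pmel (0.41), Slc45a2 (0.45) and Mlana (0.54), with adjusted p of 0.988 to 0.997 in limma. For the KO pairs, with 0 calls in limma (3093 genes at an unadjusted p under 0.05), a trended prior called 30 higher and 20 lower, and leaving out a pair gave 0 to 234 higher, 0 to 65 lower and 0 to 2 pigment genes (Tyrp1 and Dct, without KO Allo), with medians of the 9 from -1.22 to -0.62. For the WT pair (0 calls, 2396 genes unadjusted) the trended prior called 1 lower, and leaving out a KO pair gave 0 to 21 higher and 0 to 29 lower. For KO minus WT (0 calls, 914 genes unadjusted) Mitf (-0.11) ranged from -0.30 to 0.013 when 1 KO pair was left out, turning sign without KO Allo, Dct (0.64) from 0.39 to 0.80, Mlana (0.71) from 0.38 to 1.17 and Oca2 (0.47) from 0.17 to 1.03. The cause of these changes was not tested. A comparison of protein sequences was not run.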

Other observations

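Skeletal muscle genes differed among the arrays by more than the pigment transcription factors did. Of 12 such genes 4 were called lower with imiquimod, against 1.19% of all genes, with a median of -1.49 log2 units. Actn3, an actin cross-linker of fast muscle fibres, fell by 2.32 ± 0.45, Casq1, a calcium store protein, measured -1.90 ± 0.35, the myosin Myh1 -1.09 ± 0.19 and myoglobin, Mb, -1.07 ± 0.17, all called. The list mean was 8.49 on KO_IMQ, 8.02 on KO_IMQ_B, 7.82 on KO_IMQ_Allo and 9.03 on WT_IMQ, against 11.20 on KO_CTRL, 9.09 on KO_CTRL-B, 8.52 on KO_Allo and 10.97 on WT_CTRL. The order of arrays differed from that of the pigment genes, for which KO_CTRL-B was highest in all but Sox10.

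Of 7 epidermal keratinocyte genes 1 was called lower, against 1.19% of all genes, and 0 higher. The called gene was Krt15, a keratin of basal and follicle stem cells, which fell by 1.56 ± 0.25 log2 units (limma, adjusted p = 0.0305). Only 2 of the 7 had a negative difference. Krt14 at 1.15 ± 0.25, Krt1 at 0.91 ± 0.20 and Flg at 0.88 ± 0.20 were higher in every pair but not called (limma, adjusted p = 0.0649, 0.0617 and 0.0655). The median of the 7 was 0.23.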
